A study of Mus musculus with 2 samples.

Results

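The endocannabinoid signalling genes described here are 10 listed genes: the cannabinoid receptors Cnr1 and Cnr2, the receptor partner Cnrip1, the synthetic enzymes Dagla, Daglb and Napepld, and the hydrolases Mgll, Abhd6, Abhd12 and Faah. They were matched by gene name and identifier, and all 10 were found among the 55536 annotated genes of the gene tables, 22015 of which are nuclear protein-coding genes. RNA came from the left cerebral cortex of adult female mice between 18 and 20 months of age, of B6CASTF1/J, a hybrid of C57BL/6J and CAST/EiJ. There is 1 group, of 2 total RNA-seq libraries (replicates 1 and 2), each begun with 300 ng of RNA plus spike-ins, and no treatment, genotype change or contrast is named. The 2 biosamples share 1 donor entry, so the spread between them may be technical.

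Endocannabinoids are lipid messengers made on demand from membrane phospholipids. In cortex, 2-arachidonoylglycerol (2-AG) is made by diacylglycerol lipases in the postsynaptic neuron, crosses the synapse backwards and activates the receptor CB1 on the axon terminal, which lowers transmitter release. The signal ends when serine hydrolases split the lipid. Anandamide, the other main endocannabinoid, has its own synthetic enzyme (NAPE-PLD) and its own hydrolase (FAAH).

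Depth was 32504959 expected counts for replicate 1 and 24899781 for replicate 2, of which the 10 genes together held 29357 and 22165. Levels are in TPM (reads per transcript length, scaled to the same total in each library) from the gene tables, which rest on a transcriptome alignment. Nuclear protein-coding genes held 44.0% of that total in replicate 1 and 44.2% in replicate 2. A second set of tables was made from the same reads without an alignment, and is called alignment-free. All 4 excitatory neuron markers passed 1 TPM in both libraries, led by Camk2a at 1108.81 TPM in replicate 1 and 1187.74 in replicate 2. Since 58.3% of all nuclear protein-coding genes also passed, passing does not test the tissue label. Markers of striatum, which lies next to cortex, were also detected, all 4 of them with a summed level of 44.5 TPM and 40.4 TPM. In bulk tissue, fewer cells of a type and less RNA per cell cannot be told apart.

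Of the 10 genes, 9 reached 1 TPM in both libraries, and Cnr2 did not. Over all nuclear protein-coding genes 58.3% did so (12844 of 22015). The median level of the 9 genes was 40.4 TPM in replicate 1 and 44.6 in replicate 2 (mean 42.5 ± 2.95, SD, n = 2). The median of the 12844 genes was 15.5 TPM and 16.0 TPM (mean 15.8 ± 0.375, SD, n = 2). By mean level the order was Abhd12, Mgll, Cnr1, Faah, Cnrip1, Dagla, Abhd6, Daglb, Napepld and Cnr2, and the alignment-free tables gave the same order. The 2-library ranges overlapped between Cnr1 and Faah, between Faah and Cnrip1 and between Cnrip1 and Dagla, so these neighbours did not differ beyond their spread across libraries. Within a library, Cnr1 over Faah changed direction (ratios of 1.24 in replicate 1 and 0.97 in replicate 2), while Faah was above Cnrip1, and Cnrip1 above Dagla, in both. Every other pair of neighbours had ranges that lay apart in the gene tables. In the alignment-free tables the range of Dagla (52.1 to 63.2 TPM) enclosed that of Abhd6 (54.5 to 55.2 TPM).

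**Figure D1:**
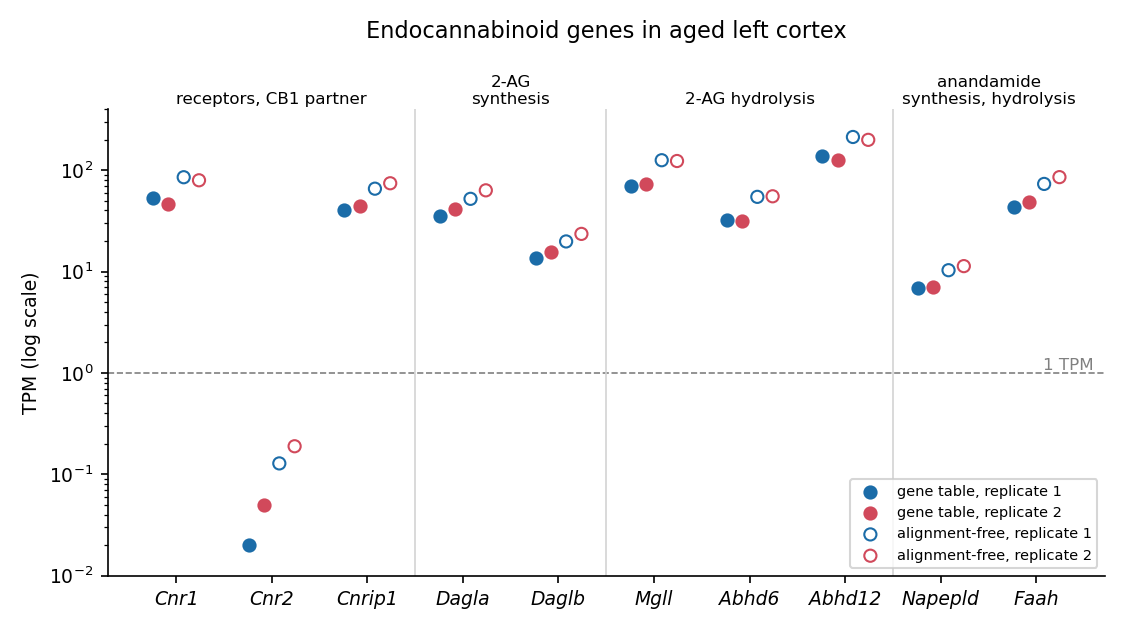
Level of each of the 10 genes in TPM (log scale), grouped by role; filled points are the gene tables and open points the alignment-free tables, replicate 1 in blue and replicate 2 in red. Abhd12 stands highest at 136.66 and 125.63 TPM, 9 genes lie above the dashed line at 1 TPM in both libraries, and Cnr2 lies at 0.02 and 0.05 TPM.

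Cnr1 encodes CB1, a G protein-coupled receptor and the main target of both endocannabinoids in brain. Its gene (ENSMUSG00000044288.6) spans chr4:33924593-33948831 on the plus strand of mm10. Cnr1 stood at 53.39 TPM in replicate 1 and 46.70 in replicate 2 (mean 50.0 ± 4.73, SD, n = 2), on 6678 and 4491 counts. Its mean lay above that of 83.4% of the 12844 expressed protein-coding genes. Replicate 1 was the higher library, and the intervals that the authors' quantifier gave for the estimate (50.0 to 54.2 TPM in replicate 1, 44.0 to 47.9 TPM in replicate 2, level not stated) did not overlap. Nor did those of Dagla (33.5 to 35.9 TPM and 38.3 to 41.5 TPM) and Abhd12 (129.0 to 137.7 TPM and 117.0 to 127.1 TPM). The intervals of the other listed genes overlapped. Each interval belongs to 1 library, so it leaves out the spread between libraries.

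The annotation gives Cnr1 alternative first exons. The stretches around their starts are shown because the 2 coding transcripts differ there and not in the protein they encode. Cnr1-201 starts at base 33924632 and Cnr1-202 at base 33926202 of chromosome 4, and both carry the same coding sequence of 1419 bases, or 473 codons, which begins at base 33943614. The windows are from RefSeq (GRCm38.p6, the patched release of the mm10 assembly) and run from 250 bases before to 50 bases after a RefSeq start, in lower case with every CG dinucleotide in capitals. Another RefSeq window of Cnr1, further upstream, held no annotated GENCODE start.
Cnr1 chr4:33924394-33924693 (plus strand; holds the starts of Cnr1-201 and Cnr1-203): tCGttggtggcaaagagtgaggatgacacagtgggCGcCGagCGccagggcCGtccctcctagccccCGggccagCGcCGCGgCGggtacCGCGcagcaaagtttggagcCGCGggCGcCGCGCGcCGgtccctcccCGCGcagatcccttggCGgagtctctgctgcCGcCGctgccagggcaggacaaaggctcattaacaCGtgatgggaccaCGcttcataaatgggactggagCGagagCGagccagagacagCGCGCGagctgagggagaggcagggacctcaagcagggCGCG
Cnr1 chr4:33926130-33926429 (plus strand; holds the start of Cnr1-202): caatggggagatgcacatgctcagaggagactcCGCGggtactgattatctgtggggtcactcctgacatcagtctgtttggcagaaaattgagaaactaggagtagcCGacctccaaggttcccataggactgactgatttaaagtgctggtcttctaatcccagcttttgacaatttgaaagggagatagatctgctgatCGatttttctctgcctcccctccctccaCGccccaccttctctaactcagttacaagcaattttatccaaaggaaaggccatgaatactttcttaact

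The windows differ in base composition, and the median RefSeq window of this length has 7 CG dinucleotides and 52.7% GC. The first holds 33 CG dinucleotides at 69.0% GC, more CG than 91.4% of all 32851 RefSeq windows of this length. The second holds 5 CG dinucleotides at 46.3% GC, more than 38.0% of windows. On either strand, neither window holds the motif GGGCGG, which 35.7% of all windows hold. Nor does either hold the motif TATAAA, present in 13.6% of windows, or the motif CCAAT, present in 37.4%. The upstream RefSeq window of Cnr1, which is not printed, holds GGGCGG 5 times and 40 CG dinucleotides at 76.3% GC.

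Most Cnr1 signal lay on Cnr1-201, the transcript that starts in the window rich in CG. In the alignment-based transcript tables Cnr1-201 took 87.2% of the gene's TPM in replicate 1 and 85.3% in replicate 2 (mean 86.3 ± 1.34, SD, n = 2). In the alignment-free tables it took 70.9% and 60.3% (mean 65.6 ± 7.49, SD, n = 2). Cnr1-202 and the non-coding Cnr1-203, named here after their values were seen, made up the rest. Cnr1-202 took 9.66% and 14.7% in the alignment-based tables, against 17.8% and 25.7% in the alignment-free ones. Cnr1-203 took 3.11% and 0%, against 11.3% and 14.0%. The leading transcript was therefore the same in all 4 tables, while the share of the others depended on the kind of table.

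Cnr2 encodes CB2, the receptor known from B cells, macrophages and other immune cells (gene ENSMUSG00000062585.11, chr4:135895394-135920207, plus strand). It had 2 counts in replicate 1 and 3 counts in replicate 2, with exact Poisson 95% intervals of 0.242 to 7.22 and 0.619 to 8.77 counts. This amounts to 0.02 TPM and 0.05 TPM, at or under the 3 counts that a count of 0 would allow. Alignment-free tables put 7.55 and 8.63 estimated counts on the gene, or 0.128 TPM and 0.189 TPM. Cnr2 was therefore barely detected, and the leading transcript changed between libraries with so few reads (Cnr2-201 in replicate 1, Cnr2-202 in replicate 2). The files held RNA of microglia, the resident immune cells of brain: all 5 of their markers passed 1 TPM, with a summed level of 70.8 TPM and 64.0 TPM, Csf1r highest at 26.51 TPM and 28.95 TPM and none at 0. Of markers of blood immune cells, Ptprc stood at 1.06 TPM and 1.04 TPM, and Ms4a1 had 1 count in replicate 1 and 0 in replicate 2.

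Cnrip1 encodes a small protein that binds the intracellular tail of CB1 (gene ENSMUSG00000044629.5, chr11:17051586-17079371, plus strand). It stood at 40.42 TPM in replicate 1 and 44.59 in replicate 2 (mean 42.5 ± 2.95, SD, n = 2), on 1431 and 1179 counts. The TPM ratio of Cnr1 to Cnrip1 was 1.32 in replicate 1 and 1.05 in replicate 2, and 1.3 and 1.07 in the alignment-free tables. Cnr1 was the higher in every table, by a margin that was wider in replicate 1. Cnrip1-201 led in all 4 tables, at 86.2% ± 3.13 of gene TPM in the alignment-based tables and 83.2% ± 1.89 in the alignment-free ones (SD, n = 2). Its exons share 199 bases with Plek, a gene on the opposite strand at 3.21 TPM and 2.23 TPM.

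Dagla and Daglb encode the diacylglycerol lipases that make 2-AG, DAGL-alpha being the form known for synaptic 2-AG in the adult brain. Dagla (gene ENSMUSG00000035735.10, chr19:10245265-10304877, minus strand) stood at 35.60 TPM in replicate 1 and 41.24 in replicate 2 (mean 38.4 ± 3.99, SD, n = 2). Daglb (gene ENSMUSG00000039206.13, chr5:143464584-143505942, plus strand) stood at 13.61 TPM and 15.52 TPM (mean 14.6 ± 1.35, SD, n = 2). Both were a little lower in replicate 1. The TPM ratio of Dagla to Daglb was 2.62 in replicate 1 and 2.66 in replicate 2, and 2.63 and 2.68 in the alignment-free tables, so it hardly moved with library or table. Daglb lay below the middle of the expressed genes, with 47.4% of them under it, whereas 77.4% lay under Dagla.

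Each lipase had a single coding transcript. Dagla-201, of 3132 coding bases, took 95.9% ± 0.429 of gene TPM in the alignment-based tables and 92.7% ± 2.36 in the alignment-free tables (SD, n = 2). Daglb-201, of 2007 coding bases, took 86.1% ± 5.17 and 83.7% ± 5.42 (SD, n = 2). The end of Daglb-201 lies over exons of Rac1, a small GTPase gene on the opposite strand, which share 2309 of its 4651 bases (49.6%). Rac1 was the more abundant gene, at 152.71 TPM in replicate 1 and 141.73 in replicate 2. Whether the counting used strand is not given in the sources used here. Without strand, the reads of that stretch could not be told apart. Expected counts were whole for both genes, at 1349 and 1132 for Daglb and 5441 and 3821 for Rac1. How far the overlap bears on the Daglb level was not tested, so that level is uncertain.

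Mgll encodes monoacylglycerol lipase, which does most of the 2-AG hydrolysis in brain (gene ENSMUSG00000033174.17, chr6:88724412-88828360, plus strand). It stood at 69.12 TPM in replicate 1 and 73.41 in replicate 2 (mean 71.3 ± 3.03, SD, n = 2), on 5344 and 4189 counts. Only Abhd12 was higher among the 10 genes, and 89.1% of expressed protein-coding genes lay under it. The TPM ratio of Mgll to Dagla, the degrading over the synthetic enzyme, was 1.94 in replicate 1 and 1.78 in replicate 2 in the gene tables. The alignment-free tables gave 2.40 and 1.95.

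The 2 kinds of table gave Mgll different leading transcripts. Mgll-204 led in the alignment-based tables, with 45.6% of the gene's TPM in replicate 1 and 56.3% in replicate 2 (mean 51.0 ± 7.60, SD, n = 2), and took 17.2% and 23.7% in the alignment-free ones. Mgll-201 led in the alignment-free tables with 39.5% and 44.8% (mean 42.2 ± 3.76, SD, n = 2), and took 22.0% and 21.6% in the alignment-based ones. These transcripts start at bases 88724412 and 88724828 of chromosome 6 and carry the same coding sequence of 909 bases, or 303 codons, so the tables disagree on the transcript and not on the coding sequence. The transcript Mgll-207 also held 10% or more in every table: 23.1% and 12.8% in the alignment-based tables, and 20.0% and 14.9% in the alignment-free tables. Its share was higher in replicate 1 in both kinds of table.

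Mgll-207 has a longer coding sequence than the other Mgll transcripts named so far. It has 957 coding bases, or 319 codons, begins further upstream, at base 88725151, and so adds 48 bases, or 16 codons, in frame before the start codon that Mgll-201 and Mgll-204 use at base 88725721. The first 60 coding bases of Mgll-207, from the GENCODE M21 transcript (GRCm38, chromosome 6, plus strand), show this addition, with the shared start codon in capitals.
Mgll-207 coding start: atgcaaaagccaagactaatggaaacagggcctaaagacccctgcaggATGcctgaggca

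Mgll-208, annotated as a target of nonsense-mediated decay and named after its values were seen, was listed at 0% in both alignment-based tables but took 15.4% of the gene's TPM in replicate 1 and 0.640% in replicate 2 in the alignment-free ones. The alignment-free coding share of Mgll was accordingly 83.6% in replicate 1 and 94.6% in replicate 2. The alignment-based values lay closer together, at 95.4% and 93.8%. An antisense gene, Gm26588, shares 167 exonic bases with Mgll and stood at 0.85 TPM and 0.87 TPM.

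**Figure D2:**
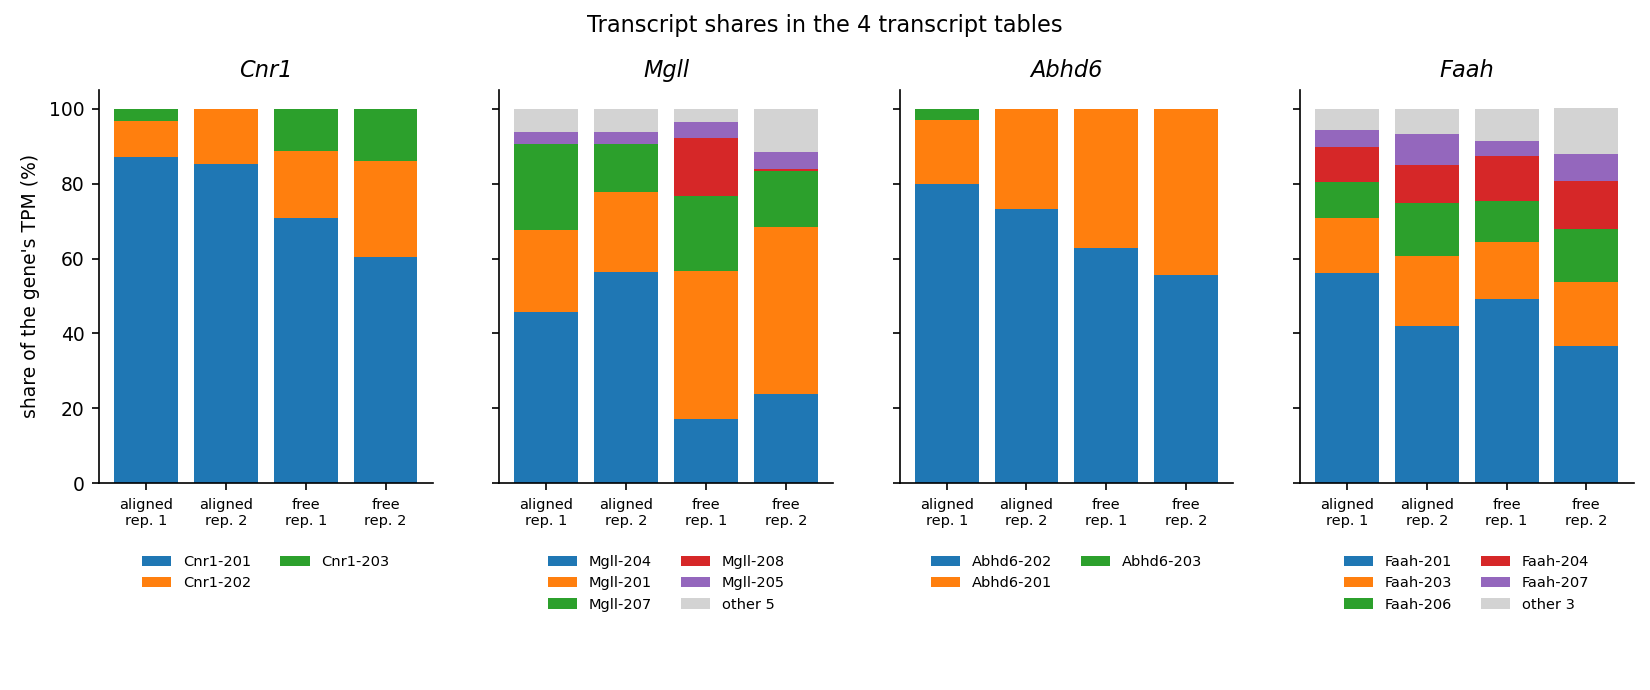
Share of a gene's TPM taken by each transcript (percent, stacked bars) for Cnr1, Mgll, Abhd6 and Faah in the 4 transcript tables, replicate 1 left of replicate 2 within each kind. Cnr1-201 is the largest block in every bar of Cnr1, whereas the largest block of Mgll is Mgll-204 at 45.6% and 56.3% in the alignment-based tables and Mgll-201 at 39.5% and 44.8% in the alignment-free ones.

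Abhd6 encodes a membrane hydrolase that splits a smaller part of brain 2-AG on the postsynaptic side (gene ENSMUSG00000025277.14, chr14:8002902-8056763, plus strand). It stood at 31.91 TPM in replicate 1 and 31.66 in replicate 2 (mean 31.8 ± 0.177, SD, n = 2). Its expected counts, 1423.97 and 1017.99, were the only fractional ones of the 10 genes. Some of its reads were therefore shared out with another entry, and its level is uncertain to that extent. The TPM ratio of Mgll to Abhd6 was 2.17 in replicate 1 and 2.32 in replicate 2, and 2.30 and 2.23 in the alignment-free tables. Mgll thus stood at more than 2 times the level of Abhd6 in every table.

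Abhd6-202 led throughout, with 80.0% of the gene's TPM in replicate 1 and 73.3% in replicate 2 in the alignment-based tables and 62.9% and 55.5% in the alignment-free ones. Abhd6-201, with the same coding sequence of 1008 bases, took 17.0% and 26.7%, and 37.1% and 44.5%. Its share was lower in replicate 1 in both kinds of table, and higher in the alignment-free than in the alignment-based tables.

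Abhd12 encodes a serine hydrolase that splits 2-AG in assays but is better known for lysophosphatidylserine, and its loss in humans causes a neurodegenerative disease (gene ENSMUSG00000032046.15, chr2:150832493-150904741, minus strand). At 136.66 TPM in replicate 1 and 125.63 in replicate 2 (mean 131.1 ± 7.80, SD, n = 2) it was the most abundant of the 10, and 95.5% of expressed protein-coding genes lay under it. Abhd12 made up 31.7% of the summed TPM of the 10 genes in replicate 1 and 28.9% in replicate 2. The TPM ratio of Abhd12 to Mgll was 1.98 and 1.71 in the gene tables, and 1.70 and 1.62 in the alignment-free tables. Abhd12-201, with 1194 coding bases, took 77.8% ± 2.07 of gene TPM in the alignment-based tables and 84.6% ± 2.15 in the alignment-free tables (SD, n = 2). The next transcript was the non-coding Abhd12-207, named after its values were seen, with 20.2% and 15.5% in the alignment-based tables and 8.98% and 7.99% in the alignment-free ones.

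Taken by role, the 3 hydrolases of 2-AG summed to more than its 2 synthetic enzymes. Abhd6 alone lay below Dagla in the gene tables of both libraries. In the alignment-free table of replicate 1 it lay above Dagla (54.5 against 52.1 TPM). The summed TPM of Mgll, Abhd6 and Abhd12 was 4.83 times that of Dagla and Daglb in replicate 1 and 4.06 times in replicate 2, and 5.45 and 4.35 times in the alignment-free tables. The ratio was higher in replicate 1 in both kinds of table, and Abhd12 made up most of the hydrolase sum in every table.

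Napepld encodes NAPE-PLD, a phospholipase D that releases anandamide from its membrane precursor (gene ENSMUSG00000044968.16, chr5:21662901-21701396, minus strand). It stood at 6.82 TPM in replicate 1 and 7.07 in replicate 2 (mean 6.95 ± 0.177, SD, n = 2), on 592 and 459 counts. It was the lowest of the 9 genes past 1 TPM, with 26.5% of expressed protein-coding genes under it. The summed TPM of Dagla and Daglb was 7.22 times that of Napepld in replicate 1 and 8.03 times in replicate 2, and 6.98 and 7.67 times in the alignment-free tables. Napepld-202 took 96.8% ± 0.223 of gene TPM in the alignment-based tables and 99.5% ± 0.683 in the alignment-free tables (SD, n = 2).

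Faah encodes fatty acid amide hydrolase, which splits anandamide and related fatty acid amides (gene ENSMUSG00000034171.13, chr4:115967145-116017926, minus strand). It stood at 43.17 TPM in replicate 1 and 48.15 in replicate 2 (mean 45.7 ± 3.52, SD, n = 2), on 2859 and 2294 counts. The TPM ratio of Faah to Napepld was 6.33 in replicate 1 and 6.81 in replicate 2, and 7.09 and 7.54 in the alignment-free tables. Faah, the hydrolase, was thus higher than Napepld in every table. These ratios are of whole-gene TPM, which for Faah includes transcripts annotated as non-coding.

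Much of the Faah signal lay on transcripts annotated as non-coding. Its only coding transcript, Faah-201 (1737 bases, 579 codons), took 56.0% of the gene's TPM in replicate 1 and 41.9% in replicate 2 in the alignment-based tables (mean 49.0 ± 9.99, SD, n = 2), and 49.2% and 36.5% in the alignment-free ones (mean 42.8 ± 9.02, SD, n = 2). The 5 transcripts with a retained intron together took 34.5% and 48.0%, and 38.0% and 47.2%. The largest of them, Faah-203, took 14.8% and 18.8%, and 15.2% and 17.2%. In TPM, Faah-201 itself stood at 24.2 in replicate 1 and 20.2 in replicate 2, so the coding level was the higher in replicate 1 while the whole-gene level was the lower there. The alignment-free tables gave the same pattern, with 36.0 TPM and 31.1 TPM for Faah-201 and 73.1 TPM and 85.3 TPM for the gene.

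Among the 9 genes past 1 TPM, Faah had the lowest coding share in all 4 tables. Over the 11639 expressed protein-coding genes with several transcripts, the median coding share was 87.6% in replicate 1 and 84.0% in replicate 2 in the alignment-based tables, and 85.2% and 81.5% in the alignment-free ones. Faah lay at percentile 14.1 and 9.09 of these genes in the alignment-based tables, and at 12.5 and 8.17 in the alignment-free tables. The other 8 genes lay between percentile 32.5 (Abhd12, alignment-based, replicate 1) and 81.9 (Napepld and Abhd6, whose transcripts are all coding).

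Retained-intron transcripts took a smaller share in replicate 1 for most genes that have them. Of the 5 genes with such a transcript, 4 had a lower share in replicate 1 in both kinds of table, as had 66.0% of all expressed protein-coding genes with one (4941 of 7492). Daglb stood at 10.2% in replicate 1 and 17.5% in replicate 2 in the alignment-based tables, and at 12.4% and 20.1% in the alignment-free ones. Cnrip1 stood at 8.31% and 10.9%, and at 8.97% and 10.7%. Faah and Abhd12 were the others, and Mgll was the exception. Over the 7492 genes the median share was 10.1% and 14.5%, and 10.9% and 14.5%, so the shift in the listed genes lay beside a like shift across the table.

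**Figure D3:**
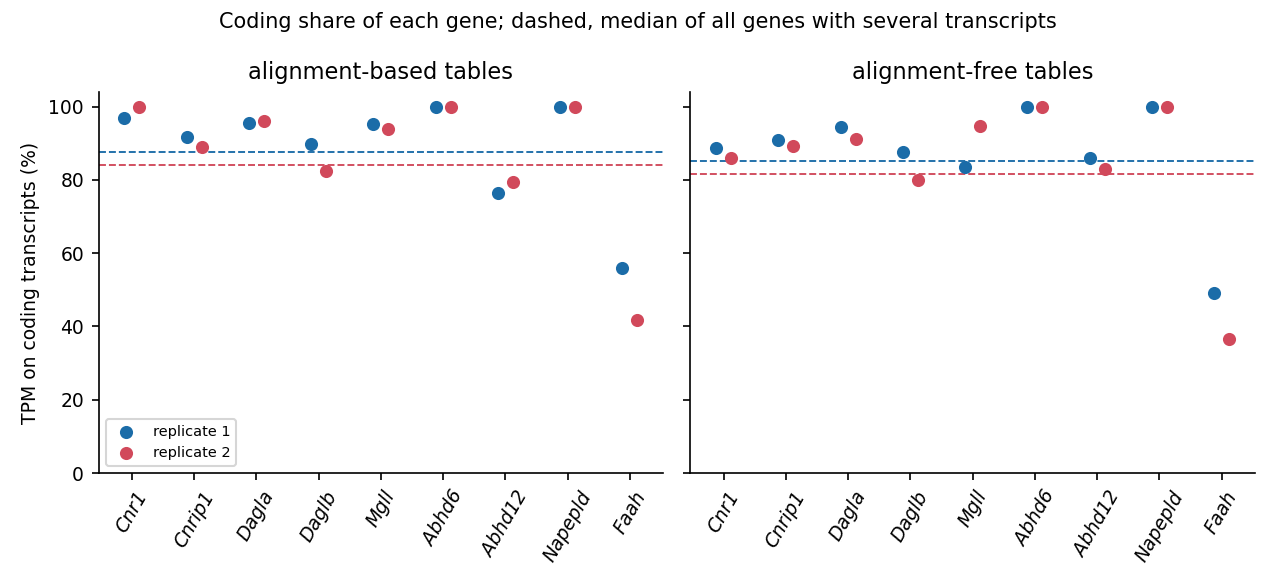
Share of each gene's TPM on coding transcripts (percent) for the 9 genes past 1 TPM, alignment-based tables left and alignment-free tables right, replicate 1 in blue and replicate 2 in red; dashed lines are the medians of 11639 expressed protein-coding genes with several transcripts. Faah lies lowest in both panels, at 56.0% and 41.9% and at 49.2% and 36.5%, and the medians lie between 81.5% and 87.6%.

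The leading transcript was the same in all 4 tables for 8 genes, the exceptions being Cnr2 and Mgll, and over all expressed protein-coding genes with several transcripts the share was 65.5% (7622 of 11639). Between the 2 libraries, 9 of the 10 genes kept their leading transcript in each kind of table, as did 88.1% of these expressed protein-coding genes in the alignment-based tables (10252 of 11639) and 85.2% in the alignment-free tables (9916 of 11639).

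The gene tables gave lower TPM values than the alignment-free tables. The log2 ratio of gene-table to alignment-free TPM had a median of -0.67 in replicate 1 and -0.73 in replicate 2 over the 9 genes, and of -0.68 and -0.70 over 12809 expressed protein-coding genes. Seen singly, 7 of the 9 were lower by over 1.5 times in both libraries, a share of all genes that came to 65.0%. The exceptions were Dagla, at -0.55 and -0.62, and Daglb, at -0.54 and -0.60. Mgll had the lowest value in replicate 1, -0.86, and stood at -0.74 in replicate 2. The 9 genes thus moved with the whole table, and the ratios between them changed less than their levels.

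Replicate 1 was then set against replicate 2, gene by gene. The log2 ratio was taken from counts scaled with edgeR's TMM method, a scaling that centres most genes, with 1 library on each side and so no test. None of the 9 genes that averaged 10 counts or more passed 2-fold, against 5.46% of all genes tested (997 of 18246). Their log2 ratios ran between -0.15 for Dagla and 0.19 for Cnr1, with a median of -0.03. The median absolute log2 ratio was 0.10 for the 9 genes and 0.17 for all genes tested. The 9 genes had at least 459 counts in each library, whereas all genes tested reach down to a mean of 10. Neither comparison is matched for counts. Scaled to spike-in counts, the ratios of all genes shifted alike and their median became -0.16, a shift about as large as the values of the 9 genes, so their signs hold only relative to the median gene.

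**Figure D4:**
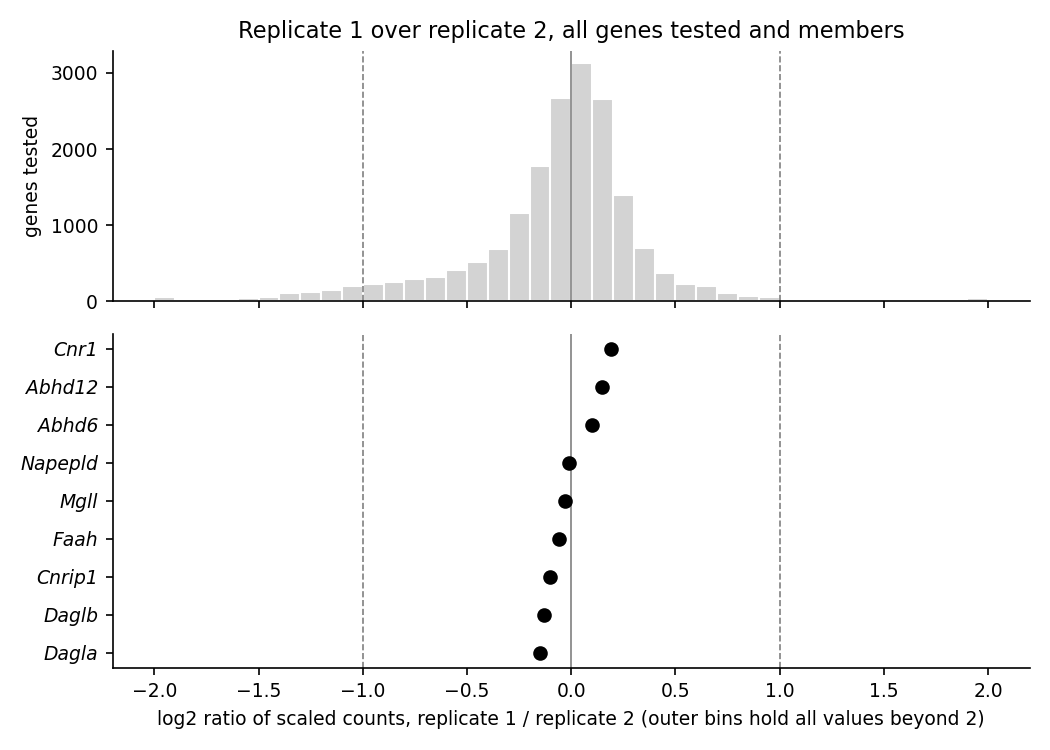
Upper panel, histogram of the log2 ratio of replicate 1 to replicate 2 over 18246 genes; lower panel, the same ratio for the 9 genes tested, with dashed lines at 2-fold. The 9 points lie between -0.15 (Dagla) and 0.19 (Cnr1), inside both dashed lines.

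Inhibitory neuron markers are given beside Cnr1 because CB1 is known to be dense on interneurons that make cholecystokinin, the peptide encoded by Cck. Of the 9 inhibitory markers 8 passed 1 TPM in both libraries, with a summed level of 913.5 TPM in replicate 1 and 766.6 in replicate 2 and a median log2 ratio of 0.30. The log2 ratios ran between 0.02 for Adarb2, whose TPM was 9.78 in replicate 1 and 10.41 in replicate 2, and 0.50 for Pvalb. Cck was the highest of the list, at 356.20 TPM and 285.20 TPM. How much of the Cck signal came from inhibitory neurons was not tested, so the summed level need not be that of inhibitory neurons alone. Slc17a8, the marker that missed the threshold, stood at 1.00 TPM and 0.99 TPM, so none of the list was at 0. Astrocyte markers, all 4 past 1 TPM, summed to 228.3 TPM and 239.6 TPM, and oligodendrocyte markers, also 4 of 4, to 261.4 TPM and 229.1 TPM. The median log2 ratio was 0.35 for oligodendrocyte and for endothelial markers, 0.33 for microglia markers and 0.30 for striatum markers. It was 0.02 for astrocyte and 0.05 for excitatory markers. The part of these cell types in the level of Cnr1 or of any other of the 10 genes was not tested.

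Related genes of the pathway were read from 5 lists, in which 27 of 38 genes passed 1 TPM in both libraries. Over all nuclear protein-coding genes 58.3% did so (12844 of 22015). None of the related genes that averaged 10 counts passed 2-fold between the libraries, and the others got no ratio. Partners of CB1 inside the cell had the highest median of the 5 lists. All 8 passed, with a median of 85.1 TPM in replicate 1 and 83.0 in replicate 2. Gnao1, the G protein subunit that CB1 couples to in neurons, stood at 281.42 TPM and 291.17 TPM. Gprasp1, which directs receptors to lysosomes, stood at 145.16 TPM and 157.56 TPM, and Sgip1, which slows CB1 internalization, at 114.48 TPM and 130.61 TPM. Each of these exceeded Cnr1 in both libraries. Expected counts were fractional for Gprasp1 (16910.3 and 13434.98) and, in replicate 2, for Sgip1 (4963.89). Some of their reads were therefore shared out, and their levels are uncertain.

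Receptors that activate Gq and so drive 2-AG synthesis passed in 4 of 4 cases, with a median of 40.7 TPM and 43.4 TPM. Grm5, a glutamate receptor, stood at 80.57 TPM in replicate 1 and 80.41 in replicate 2. The muscarinic receptors Chrm1 and Chrm3 stood at 60.30 TPM and 64.64 TPM, and at 21.19 TPM and 22.20 TPM. Plcb1, the phospholipase C that feeds diacylglycerol to the lipases, was at 75.53 TPM and 83.04 TPM, above Dagla in both libraries. Intracellular lipid carriers passed in 4 of 4 cases, led by Fabp3 at 64.05 TPM and 54.35 TPM, Fabp5 at 48.29 TPM and 45.41 TPM and Scp2 at 46.56 TPM and 44.87 TPM. All 3 had fractional expected counts, so some of their reads were shared out and their levels are uncertain.

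Other enzymes of synthesis and breakdown, Plcb1 among them, passed in 8 of 14 cases, near the 58.3% of all nuclear protein-coding genes. Their median was 6.92 TPM and 8.89 TPM. Gde1, a phosphodiesterase of another route to anandamide, was the highest at 105.10 TPM in replicate 1 and 96.87 in replicate 2. Abhd4, an enzyme of the same route, stood at 18.25 TPM and 17.13 TPM. Both stood above Napepld in both libraries. Hrasls5, an acyltransferase, had 0 counts in both gene tables, which allows up to 0.0927 CPM (a library-size scaling of the counts on genes) in replicate 1 and 0.121 CPM in replicate 2. The alignment-free tables gave it 0 TPM in replicate 1 and 0.112 TPM in replicate 2.

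Other receptors for these ligands were mostly low, with 3 of 8 past 1 TPM and a median of 0.09 TPM and 0.08 TPM. Trpv2, an ion channel, stood at 9.07 TPM in replicate 1 and 9.22 in replicate 2. The nuclear receptors Pparg and Ppara stood at 4.26 TPM and 5.33 TPM, and at 1.73 TPM and 2.31 TPM. Gpr18 and Gpr119, G protein-coupled lipid receptors, had 0 counts in both libraries. Cnr1 was thus the highest of the 10 listed receptors of endocannabinoid ligands, Cnr2 included.

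**Figure D5:**
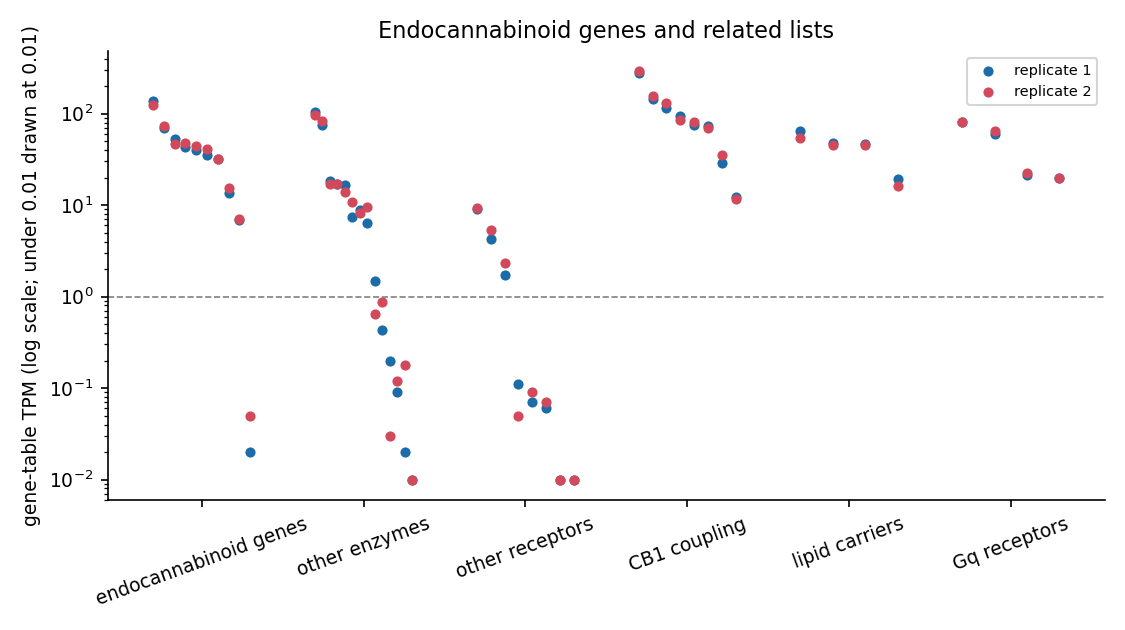
Gene-table TPM (log scale; values under 0.01 drawn at 0.01) of each gene in the endocannabinoid list and in 5 related lists, replicate 1 in blue and replicate 2 in red, ordered by mean within a list; the dashed line marks 1 TPM. All genes of the lists of CB1 coupling, lipid carriers and Gq receptors lie above the line, and 3 of 8 other receptors do.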

How the data were processed

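Total RNA from 2 cortex libraries of 1 group was sequenced; the labels give mm10 as the assembly and spike-ins for stranded, ribosomal RNA-reduced libraries. Per the text deposited with each library, values refer to mm10 and GENCODE M21. Aligner, quantifiers, their versions and any use of strand in counting: not given in the sources used here. Reads were placed on the C57BL/6J reference, and the effect of CAST/EiJ variants was not analysed here.

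Per the file headers, the authors' gene tables and alignment-based transcript tables hold expected counts and TPM, the gene tables also posterior mean TPM and interval bounds of TPM. The deposited alignment-free transcript tables hold estimated counts and TPM, summed here to genes. The deposited TPM of the gene tables has the same total in each library, taken over spike-ins, genes and entries for short RNAs. The authors' expected counts are not normalized and need not be whole.

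Levels are mean ± SD of TPM (n = 2). Transcript shares were recomputed from TPM. With 1 group no test was made and no p-value given. For the log2 ratio of replicate 1 to replicate 2, expected counts were rounded, spike-ins and short-RNA entries left out, genes with a mean of 10 counts kept, counts scaled with TMM (edgeR 4.0.16, R 4.3.3) and log2 CPM taken with a prior count of 2; DESeq2 1.42.0 size factors were an alternative. Tables were handled with Python 3.11.15 and pandas 2.3.3. The count steps were checked on simulated data. Counts on genes were 32357983 in replicate 1 and 24798683 in replicate 2; Poisson intervals (95%) and the floor of 3 counts cover counting error only. RefSeq windows were matched by symbol, with 13 windows for 8 of the 10 genes.

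The 10 genes and the related lists were chosen with earlier results of these data known. All 10 genes are named; of each related list the 3 genes with the highest mean TPM and those with 0 counts in both libraries; marker genes where a value stands beside a listed gene; and transcripts that lead a gene in any table or hold 10% or more in every table, with the exceptions given. Alternatives were the alignment-free tables, posterior mean TPM, TPM rescaled to nuclear protein-coding genes, thresholds of 0.5 and 2 TPM, other scalings, priors of 0.5 and 5, no count filter, and leaving out each replicate. Some marker values are not reported here.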

Additional observations from a re-analysis of the deposited data

How the results depend on the processing

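The median level of the 9 expressed genes, 42.5 TPM in the gene tables, was 69.9 TPM in the alignment-free tables and 96.3 TPM when TPM was rescaled to nuclear protein-coding genes; all 10 levels moved by more than the spread under either. Lower gene-table TPM by over 1.5 times held for 7 genes, and by over 2 times (a fold chosen after seeing the data) for 0. Under the thresholds of 0.5 and 2 TPM and without either replicate, 9 genes passed. None of the 9 log2 ratios passed 2-fold under any scaling, prior or filter tried, while the count over all genes was 2773 of 27883 with no filter and 1502 of 20211 from alignment-free counts, against 997 of 18246. Of 13 transcript shares, 8 moved by more than the spread in the alignment-free tables. The log2 ratio of Mgll was -0.03 from expected and 0.03 from alignment-free counts; spike-in scaling and no filter shift all ratios alike. No paired analysis was possible because there is 1 group and no contrast. Leaving out a replicate of the log2 ratio was not run, since each side is 1 library.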
